A study of Homo sapiens with 36 samples.

Results

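Cutaneous T cell lymphoma (CTCL) lines were compared with T-cell acute lymphoblastic leukaemia (T-ALL) lines, using control libraries of polyadenylated RNA from 18 of the 36 libraries of the series. The rule took every library of cells with a scrambled hairpin, grouped by the class of the line, and counted the line as the replicate. The CTCL group held 3 lines and 7 libraries. They were H9 (2 libraries), cloned from HUT 78, a line of Sézary syndrome, MyLa (3 libraries, labelled as a CD4+ line), which came from mycosis fungoides, and Mac1 (2 libraries), another CTCL line. The T-ALL group held 4 lines and 11 libraries, namely SUP-T1 (3), CCRF-CEM (3), MOLT4 (2) and THP6 (3). All 7 lines were grown in the same serum-supplemented medium and carried the scrambled hairpin that served as control for a GATA3 knockdown elsewhere in the series; the labels give their genotype as wild type. Each line is a long-term culture from 1 patient, so a class mean describes 3 or 4 tumours.

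CTCL arises from mature, skin-homing CD4+ T cells, and T-ALL from immature T cells arrested in the thymus. Thymocytes rearrange their antigen receptor genes with the RAG recombinase, receive Notch signals and display CD1 molecules. Mature human T cells, once activated, take up cytokine signals through JAK and STAT proteins, switch on NF-kB, and, unlike mouse T cells, can display class II molecules of the major histocompatibility complex (MHC).

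The shallowest library, THP6 control 3, held 18.62 M expected counts and the deepest, SUP-T1 control 2, 36.22 M. Levels are given as CPM, the counts scaled to a common library size, which compare a gene between lines and not genes with each other. Line values are means over that line's libraries, listed in the order H9, MyLa and Mac1 for CTCL and SUP-T1, CCRF-CEM, MOLT4 and THP6 for T-ALL. Of the variance of log2 CPM, 34% lay between the classes, 63% between lines of a class and 3.03% between libraries of a line. The first principal component held 37.8% of the variance. Pearson's r of log2 CPM across genes, a description of pairs of lines, was 0.861 between MyLa and Mac1, and 0.817 and 0.815 between H9 and these. H9 had r of 0.816 to 0.845 with the T-ALL lines, which had r of 0.848 to 0.912 among themselves. In GATA3 levels the SUP-T1 libraries labelled control lay below those labelled knockdown, which goes against the labels of this line, so results were also computed with the SUP-T1 libraries labelled knockdown.

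**Figure D1:**
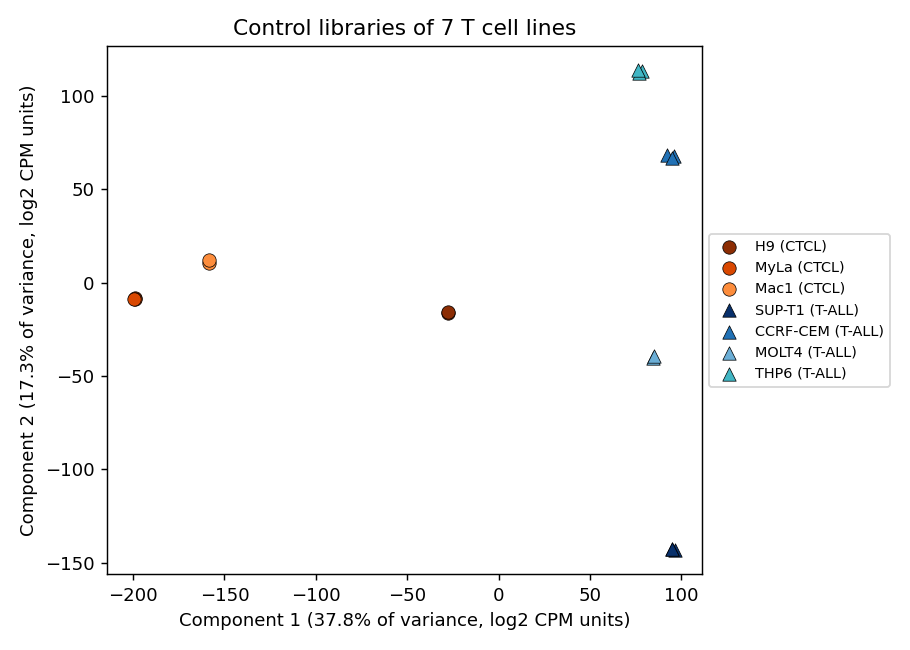
Principal components of log2 CPM over 18 control libraries, component 1 (37.8% of variance) on the x axis and component 2 (17.3%) on the y axis. Circles are CTCL libraries and triangles T-ALL libraries. Libraries of a line overlie each other, and H9 lies between the other CTCL lines and the T-ALL lines on component 1.

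Markers of the T cell lineage were checked first, because the lines had kept them unequally. The CD3 delta gene CD3D, part of the receptor complex, had 148, 127 and 0 CPM in the CTCL lines, against 629, 283, 281 and 255 CPM in the T-ALL lines. The CD3 epsilon gene CD3E had 220, 0.166 and 0 CPM in the CTCL lines, against 672, 354, 602 and 361 CPM in the T-ALL lines. LCK, the kinase that starts receptor signalling, had 270, 0.0135 and 0 CPM in the CTCL lines, against 979, 158, 668 and 131 CPM in the T-ALL lines. Mac1 thus held no counts of these 3 genes and MyLa next to none of CD3E and LCK, whereas all T-ALL lines expressed them. ZAP70, the next kinase in the chain, was measured in every line, with 258, 307 and 157 CPM in the CTCL lines, against 220, 235, 333 and 259 CPM in the T-ALL lines. The pan-T cell marker CD7, often lost in Sézary cells, had 1.68, 0.0387 and 0 CPM in the CTCL lines, against 184, 56, 17.5 and 174 CPM in the T-ALL lines. Its adjusted p was 0.198. Other T cell markers varied. CD2 had 0.093, 117 and 163 CPM in the CTCL lines, against 7.63, 0.155, 0.502 and 0.234 CPM in the T-ALL lines. CD247 had 197, 63.8 and 81 CPM in the CTCL lines, against 78, 62.4, 94.8 and 68.5 CPM in the T-ALL lines. CD247 overlapped, as did CD3G, which was at 0 in Mac1. BCL11B was lower in every CTCL line than in every T-ALL line, and none of these markers passed. The coreceptor gene CD4 had 11.6, 0.0373 and 189 CPM in the CTCL lines, against 371, 157, 3.14 and 8.74 CPM in the T-ALL lines. MyLa is labelled CD4+ and held 0.0373 CPM of it.

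Counts were summed per line, and the 3 CTCL sums were tested against the 4 T-ALL sums with edgeR's quasi-likelihood test over 18565 genes, with Benjamini-Hochberg adjustment and a threshold of 0.05. In all, 52 genes passed (0.28% of those tested), of which 38 were higher (0.205%) and 14 lower (0.0754%) in CTCL. In each of the 52 the line values of the classes did not overlap. By comparison, every CTCL line lay above every T-ALL line in 1334 genes (7.19%) and below in 1319 (7.1%), so most separated genes did not pass. Of 763 genes with an absolute log2 fold change over 5, 723 did not pass, and 2563 genes had an unadjusted p under 0.05. Lines of a class differed strongly, with a common dispersion of 0.768. Without H9, 183 genes were called higher and 155 lower; 51 of the 52 were among them. Without Mac1 the counts were 11 and 1, without MyLa 11 and 3, without SUP-T1 24 and 6, without CCRF-CEM 16 and 4, without MOLT4 18 and 4, and without THP6 10 and 5. The calls that held without each line in turn were CD74, CIITA, DHX32, PARVB and CDCA7L.

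**Figure D2:**
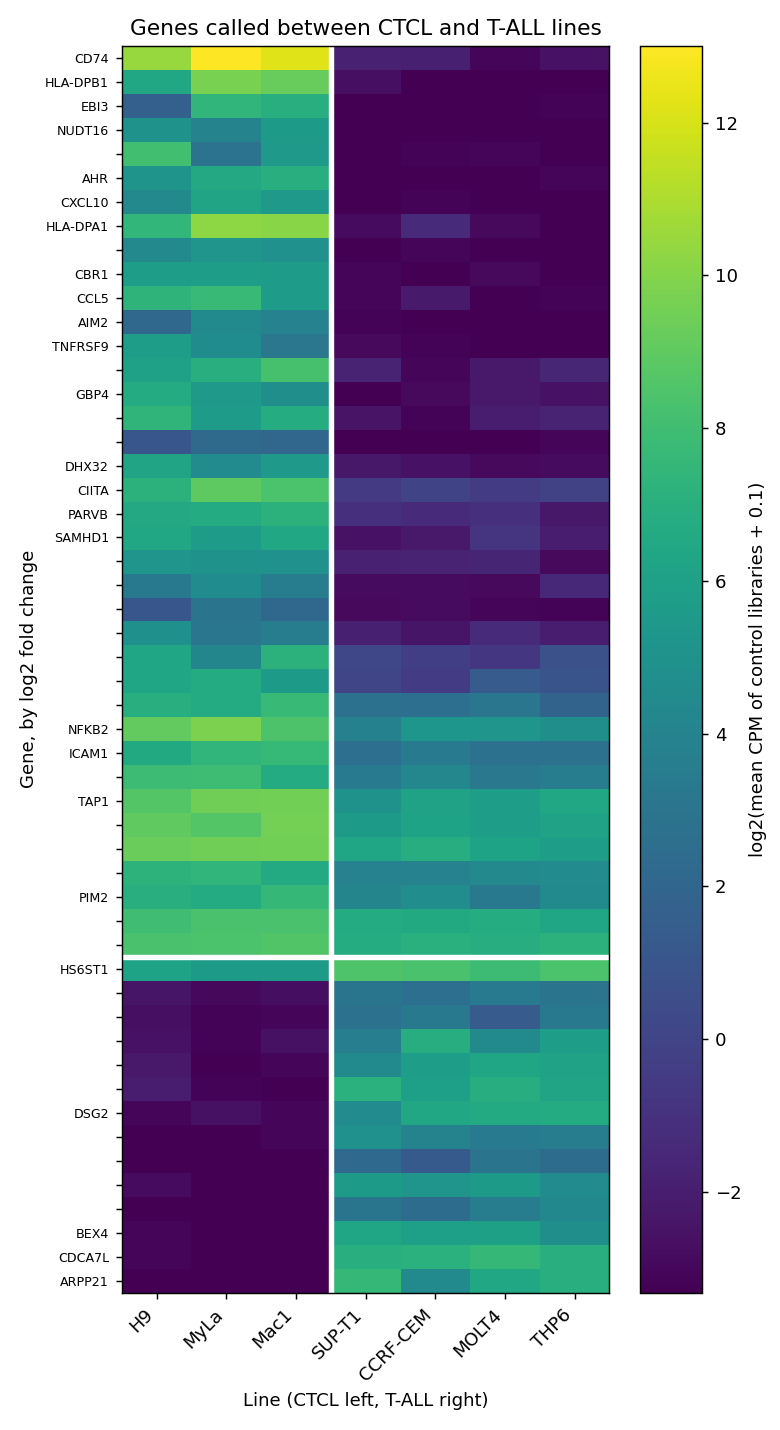
Mean level of each of the 52 called genes by line, as log2(CPM + 0.1) on the colour scale, with CTCL lines left, T-ALL lines right and genes ordered by log2 fold change. The white horizontal line parts the 38 genes higher in CTCL from the 14 lower, and most rows are dark in the whole of 1 class (rows are named for genes described in the text).

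**Figure D3:**
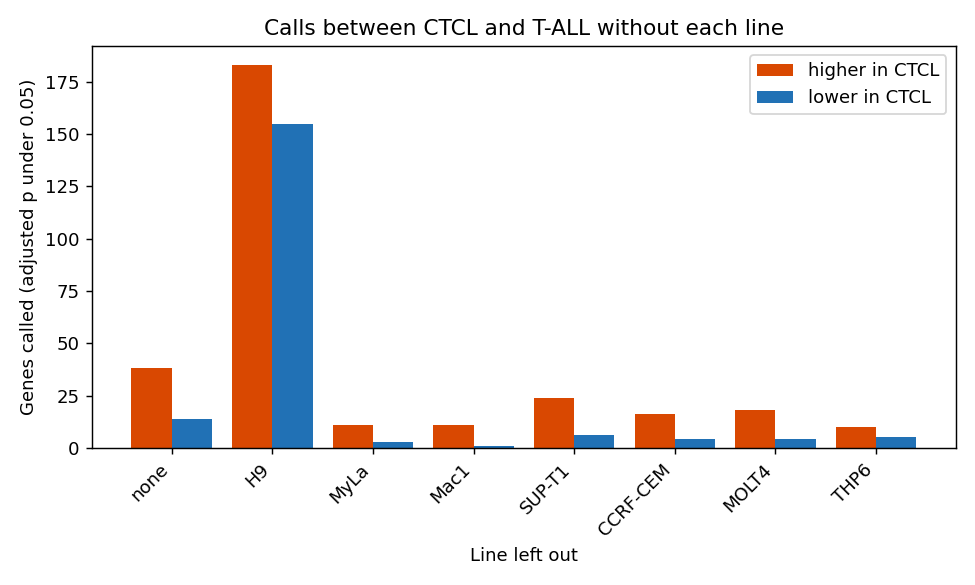
Number of genes called higher or lower in CTCL (y axis) when each line is left out (x axis). Without H9 the bars reach 183 and 155, against 38 and 14 with all lines.

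Genes of MHC class II presentation held 4 of the 38 genes called higher in CTCL, beside 0.205% of all genes tested that were called higher. Of 14 list members 10 could be tested, and 8 had every CTCL line above every T-ALL line, beside 7.19% of all genes tested. The median log2 fold change was 8.58, beside 0.029 over all genes tested. The filter on low counts kept genes with enough counts in at least 3 lines. A member near 0 in T-ALL thus entered mainly where all CTCL lines expressed it. The 8 and the median therefore partly follow from the filter. The count of calls in the list was 8 with DESeq2, 2 with limma-voom and 2 without SUP-T1. CIITA (chromosome 16, 10866222 to 10943021, plus strand, GRCh38), the master coactivator of class II genes, had 144, 494 and 331 CPM in the CTCL lines, against 0.581, 0.937, 0.626 and 0.79 CPM in the T-ALL lines. The classes did not overlap, with a log2 fold change of 8.79 (SE 0.55, edgeR adjusted p = 0.0045). CD74 (chromosome 5, 150401637 to 150412929, minus strand), the invariant chain that escorts class II molecules, had 1419, 8211 and 4625 CPM in the CTCL lines, against 0.179, 0.165, 0.018 and 0.0703 CPM in the T-ALL lines. Its log2 fold change was 15.37 (SE 1.17, adjusted p = 0.0127), and H9 was the lowest CTCL line. HLA-DPA1, an alpha chain, had 183, 1191 and 1090 CPM in the CTCL lines, against 0.0367, 0.283, 0.036 and 0 CPM in the T-ALL lines. HLA-DPB1, its beta chain, had 84.9, 838 and 600 CPM in the CTCL lines, against 0.0559, 0, 0 and 0 CPM in the T-ALL lines. The log2 fold changes of the pair were 13.14 (SE 1.58, adjusted p = 0.0323) and 14.85 (SE 1.53, adjusted p = 0.0188); the fitted size for genes this close to 0 depends on the prior count. HLA-DMA, which helps to load peptide, had 16.6, 259 and 178 CPM in the CTCL lines, against 1.39, 1.04, 0.878 and 3.62 CPM in the T-ALL lines. Its partner HLA-DMB had 33.5, 160 and 116 CPM in the CTCL lines, against 0.0128, 0.213, 0.33 and 0.689 CPM in the T-ALL lines. Neither passed (adjusted p = 0.07 and 0.0601) although their lines were apart.

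The CTCL lines differed among themselves in which class II genes they used. HLA-DRA, the DR alpha chain, had 306, 0 and 1770 CPM in the CTCL lines, against 0.0678, 0, 0 and 0 CPM in the T-ALL lines. HLA-DRB1 had 87.9, 0.0261 and 1040 CPM in the CTCL lines, against 0 in all T-ALL lines. HLA-DQB1 had 9.34, 0 and 491 CPM in the CTCL lines, against 0.6, 0, 0 and 0 CPM in the T-ALL lines. MyLa, the CTCL line with the highest CIITA, CD74 and HLA-DPB1, therefore held no counts of HLA-DRA or HLA-DQB1, while H9 and Mac1 expressed them. HLA-DRA, HLA-DRB1, HLA-DRB5 and HLA-DQA1 were not tested. H9 and Mac1 expressed them, but the filter needed enough counts in at least 3 lines. HLA genes share near-identical stretches, and how RSEM divided reads between them was not checked. HLA-DPA1 and HLA-DPB1 overlap on opposite strands, as do CIITA and DEXI, and whether reads were counted by strand is not given here.

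**Figure D4:**
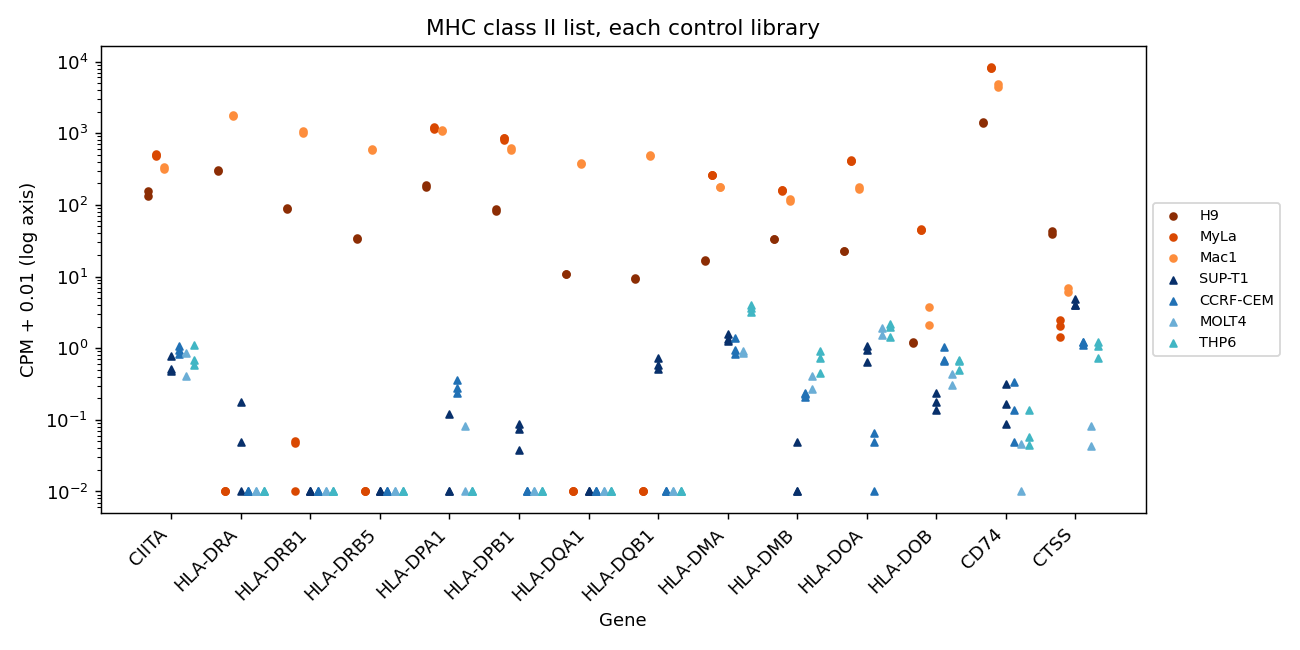
Level of each MHC class II list gene in each control library, as CPM + 0.01 on a log axis, with CTCL lines as circles left of T-ALL lines as triangles. CD74 ranges from 1419 to 8211 CPM in CTCL line means, against 0.018 to 0.179 CPM in T-ALL line means, and MyLa sits at the floor for HLA-DRA.

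Promoters of class II genes carry a module bound by RFX, CREB and NF-Y factors, and the NF-Y part is a CCAAT box. RefSeq promoters (GRCh38.p14, 250 bases before to 50 after the start) were matched for 11 of the 14 list genes, and 10 of the 11 (90.9%) held CCAAT on either strand (CCAAT or ATTGG), against 35.7% of 27305 promoters in the table. HLA-DPA1 was the one without it in this window. The called genes higher in CTCL held it in 10 of 29 matched promoters (34.5%) and those lower in 3 of 12 (25%). A match is a description of letters, not of binding. The promoters of CD74 (chr5:150412861-150413160, minus strand), HLA-DPB1 (chr6:33075740-33076039, plus strand) and HLA-DMA (chr6:32953048-32953347, minus strand) are shown as examples that hold the box. Other list genes also stood apart between the classes and are not shown, among them HLA-DMB and the called HLA-DPA1. The boxes are in capitals and begin 53 (CD74), 99 and 75 (HLA-DPB1), and 79 and 49 (HLA-DMA) bases before the start.
CD74: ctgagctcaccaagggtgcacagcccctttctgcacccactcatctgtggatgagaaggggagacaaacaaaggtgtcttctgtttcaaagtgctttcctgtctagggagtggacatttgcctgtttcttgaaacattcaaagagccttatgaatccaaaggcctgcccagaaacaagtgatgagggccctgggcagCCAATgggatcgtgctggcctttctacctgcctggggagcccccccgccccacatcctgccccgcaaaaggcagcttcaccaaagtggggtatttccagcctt
HLA-DPB1: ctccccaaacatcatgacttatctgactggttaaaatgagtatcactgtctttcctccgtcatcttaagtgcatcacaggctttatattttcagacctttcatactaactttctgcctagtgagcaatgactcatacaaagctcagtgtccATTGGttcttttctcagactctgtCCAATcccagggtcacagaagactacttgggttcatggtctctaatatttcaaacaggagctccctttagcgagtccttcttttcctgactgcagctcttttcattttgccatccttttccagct
HLA-DMA: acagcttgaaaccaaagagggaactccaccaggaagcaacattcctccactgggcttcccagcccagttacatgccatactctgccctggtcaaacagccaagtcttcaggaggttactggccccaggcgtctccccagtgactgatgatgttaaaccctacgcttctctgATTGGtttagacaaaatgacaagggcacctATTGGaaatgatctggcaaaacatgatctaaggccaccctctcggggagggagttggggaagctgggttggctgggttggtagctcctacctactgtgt

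All 15 class I presentation genes were tested and had a positive log2 fold change, with a median of 1.65. Of these, 8 were apart with CTCL higher, beside 7.19% of all genes tested, and 1 was called, beside 0.28%. The called gene was TAP1, the peptide transporter, with 395, 710 and 746 CPM in the CTCL lines, against 32.4, 68.4, 56.4 and 85.6 CPM in the T-ALL lines. Its log2 fold change was 3.34 (SE 0.40, adjusted p = 0.0323). HLA-B had 1043, 735 and 3418 CPM in the CTCL lines, against 57.6, 0.647, 57 and 24.4 CPM in the T-ALL lines. In HLA-B the CCRF-CEM line stood at 0.647 CPM, far below the other T-ALL lines, and the gene did not pass (adjusted p = 0.159). TAP1 overlaps PSMB9 on the other strand.

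Of 34 tested receptor and JAK-STAT genes of cytokine signalling 31 had positive log2 fold changes, and the median was 2.53. Apart with CTCL higher were 16, beside 7.19% of all genes tested, and none lower. Members near 0 in T-ALL passed the filter mainly through CTCL lines, so the 16 and the median partly follow from the filter. With edgeR 2 were called, beside 0.28% of all genes tested, with DESeq2 13 and with limma-voom 3. PIM2, a survival kinase induced by STAT5, was one of the called genes, with 121, 104 and 191 CPM in the CTCL lines, against 17.2, 25.1, 9.43 and 21.5 CPM in the T-ALL lines. Its log2 fold change was 2.92 (SE 0.40, adjusted p = 0.0495). IL2RA, the high-affinity interleukin 2 receptor chain, had 4.92, 363 and 2075 CPM in the CTCL lines, against 0.0312, 0.0108, 0.0689 and 0.162 CPM in the T-ALL lines. CISH, a feedback inhibitor induced by STAT5, had 162, 149 and 278 CPM in the CTCL lines, against 0.258, 8.36, 8.78 and 6.61 CPM in the T-ALL lines. SOCS3, another feedback inhibitor, had 19.1, 27.5 and 823 CPM in the CTCL lines, against 8.2, 0.98, 4.8 and 2.62 CPM in the T-ALL lines. Mac1 was the highest CTCL line in all 3 of these, and none passed (adjusted p = 0.0706, 0.11 and 0.173). The common gamma chain IL2RG, by contrast, had 470, 186 and 86.5 CPM in the CTCL lines, against 238, 290, 278 and 448 CPM in the T-ALL lines. Its adjusted p was 0.837.

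Of 39 interferon response genes tested, 6 were apart with CTCL higher and 1 lower, beside 7.19% and 7.1% of all genes tested. The median log2 fold change was 0.94. Among the 39, 2 were called, beside 0.28% of all genes tested. GBP4, an interferon-induced GTPase, was one of them, with 105, 43.8 and 27.8 CPM in the CTCL lines, against 0, 0.0346, 0.12 and 0.0756 CPM in the T-ALL lines. GBP4 had a log2 fold change of 10.06 (SE 1.26, adjusted p = 0.0407). ISG15, a classical type I target, had 50.4, 21.5 and 26.6 CPM in the CTCL lines, against 40.5, 85.8, 10 and 52.1 CPM in the T-ALL lines. IFIT1, another, had 0.579, 1.51 and 1.16 CPM in the CTCL lines, against 0.812, 5.07, 4.26 and 5.01 CPM in the T-ALL lines. Neither passed (adjusted p = 0.791 and 0.378). The interferon-induced chemokine gene CXCL10 was among the 12 highest fold changes of called genes with a class mean of at least 5 CPM, with 20.2, 74.4 and 45.3 CPM in the CTCL lines, against 0, 0.013, 0 and 0 CPM in the T-ALL lines. The T-ALL libraries together held 1 count of it, and the ratio of summed levels was 15370 (95% exact Poisson interval 2759 to 607200, counting error only). CXCL10 lies within ART3 on the other strand.

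NF-kB genes gave 3 calls among 23 tested, beside 0.28% of all genes tested. Apart with CTCL higher were 12 members, beside 7.19% of all genes tested, and none lower. The median was 2.16. Here too, members near 0 in T-ALL passed the filter mainly through CTCL lines, which bears on the 12 and the median. NFKB2, the precursor of the non-canonical subunit, had 530, 893 and 343 CPM in the CTCL lines, against 14.2, 38.5, 35.8 and 28.5 CPM in the T-ALL lines. Its log2 fold change was 4.34 (SE 0.48, adjusted p = 0.0232). ICAM1, an adhesion ligand and NF-kB target, had 94.5, 170 and 192 CPM in the CTCL lines, against 6.21, 11.2, 7.05 and 6.85 CPM in the T-ALL lines. ICAM1 had a log2 fold change of 4.28 (SE 0.36, adjusted p = 0.0134). EBI3, a cytokine subunit, had 3.08, 170 and 119 CPM in the CTCL lines, against 0, 0, 0 and 0.0107 CPM in the T-ALL lines. H9 held far less EBI3 than the other CTCL lines, and the T-ALL libraries together held 1 count (ratio 32850, interval 5897 to 1298000). The canonical subunit RELA had 104, 82.4 and 94.5 CPM in the CTCL lines, against 82.1, 110, 92.2 and 128 CPM in the T-ALL lines. RELB, the partner of NFKB2, had 150, 123 and 101 CPM in the CTCL lines, against 3.8, 19.9, 12.2 and 18.3 CPM in the T-ALL lines. RELA overlapped (adjusted p = 0.836), and RELB was apart without passing (adjusted p = 0.0764). TRAF1, a receptor adaptor and target, had 140, 625 and 106 CPM in the CTCL lines, against 0.742, 1.24, 1.38 and 5.03 CPM in the T-ALL lines. Its adjusted p was 0.0571.

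In the TNF superfamily 7 of 21 tested genes were apart with CTCL higher and 1 lower, beside 7.19% and 7.1% of all genes tested. The median was 3.47. A member near 0 in every T-ALL line passed the filter mainly through CTCL lines, so the 7 and the median partly follow from the filter. Of the 21, 1 gene was called, beside 0.28% of all genes tested. TNFRSF9, the costimulatory receptor 4-1BB, was that gene, with 57.3, 24.4 and 8.61 CPM in the CTCL lines, against 0.0325, 0.0108, 0 and 0 CPM in the T-ALL lines. The log2 fold change was 11.08 (SE 1.42, adjusted p = 0.0407). CD70, the ligand of CD27, had 51.7, 173 and 515 CPM in the CTCL lines, against 0.195, 0.0108, 1.43 and 0.281 CPM in the T-ALL lines. TNFRSF8, which encodes CD30, had 169, 132 and 1330 CPM in the CTCL lines, against 0.00918, 54.3, 20.3 and 16.5 CPM in the T-ALL lines. Both were apart, and neither passed (adjusted p = 0.0827 and 0.334).

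The CTCL lines differed among themselves in effector genes. Among Th1 and cytotoxic genes 1 of 17 tested was called, beside 0.28% of all genes tested. It was CCL5, a chemokine of effector T cells, with 155, 206 and 52.5 CPM in the CTCL lines, against 0.0197, 0.122, 0 and 0.0114 CPM in the T-ALL lines. CCL5 had a log2 fold change of 11.61 (SE 1.27, adjusted p = 0.0232). PRF1, perforin, had 277, 26.5 and 522 CPM in the CTCL lines, against 2.74, 3.46, 11.6 and 27.1 CPM in the T-ALL lines. NKG7, a cytotoxic granule gene, had 51.5, 0.721 and 200 CPM in the CTCL lines, against 2.77, 3.65, 2.92 and 17.9 CPM in the T-ALL lines. Both were higher in H9 and Mac1 than in MyLa, and neither passed (adjusted p = 0.179 and 0.349). GZMB, granzyme B, had 0, 0.0382 and 120 CPM in the CTCL lines, against 0.0234, 0, 0.0524 and 0 CPM in the T-ALL lines. GZMK, granzyme K, had 48.7, 0 and 0 CPM in the CTCL lines, against 0, 0, 0 and 0.0335 CPM in the T-ALL lines. The Th17 cytokine gene IL17F had 0, 0.129 and 3044 CPM in the CTCL lines, against 0.00918, 0, 0 and 0.0214 CPM in the T-ALL lines. The Th2 cytokine gene IL13 had 0, 30.9 and 0 CPM in the CTCL lines, against 0.0197, 0, 0 and 0.0107 CPM in the T-ALL lines. Among CTCL lines GZMB and IL17F were highest in Mac1, GZMK in H9 and IL13 in MyLa, and these 4 were not tested after the filter. AHR, a ligand-activated transcription factor used by Th17 cells, was called, with 34.4, 94.2 and 126 CPM in the CTCL lines, against 0, 0, 0 and 0.0221 CPM in the T-ALL lines. The T-ALL libraries together held 2 counts of AHR (ratio 13280, interval 3676 to 109600). The checkpoint gene TIGIT had 0.26, 285 and 0.0178 CPM in the CTCL lines, against 0.0128, 0, 0 and 0.0228 CPM in the T-ALL lines. PRDM1, which encodes BLIMP1, had 7.85, 12.6 and 1019 CPM in the CTCL lines, against 0.0509, 0.358, 1.04 and 0.963 CPM in the T-ALL lines. Its lines were apart and its adjusted p was 0.153.

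Of the 9 tested Th2 genes none passed with edgeR (4 with unadjusted p under 0.05; DESeq2 called 2 higher and 1 lower, limma-voom 0). GATA3 (chromosome 10) had 150, 256 and 92.4 CPM in the CTCL lines, against 24.4, 87.2, 64.5 and 134 CPM in the T-ALL lines. The classes overlapped: THP6 exceeded Mac1. The log2 fold change was 1.10 (SE 0.58, adjusted p = 0.463), and an exact permutation test on line means gave p = 0.114 two-sided, where 35 regroupings of 3 against 4 lines allow no p below 0.0571. The skin-homing chemokine receptor gene CCR4 had 75.3, 190 and 369 CPM in the CTCL lines, against 0.0184, 71.5, 0.49 and 31 CPM in the T-ALL lines. The interleukin 4 receptor gene IL4R had 85.5, 118 and 217 CPM in the CTCL lines, against 4.93, 30.4, 19.9 and 31.3 CPM in the T-ALL lines. Both were apart without passing (adjusted p = 0.538 and 0.157).

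Homing receptors gave no edgeR call among 15 tested (4 with unadjusted p under 0.05; DESeq2 called 3 higher, limma-voom 1 higher). CCR7, the lymph node homing receptor, had 146, 256 and 1147 CPM in the CTCL lines, against 1.78, 31, 29.9 and 50.8 CPM in the T-ALL lines. CCR9, which guides thymocytes, had 0, 0 and 0.0178 CPM in the CTCL lines, against 4.45, 4.67, 165 and 0.54 CPM in the T-ALL lines. GPR15, a homing receptor of the gut and skin, had 40.5, 90.8 and 28.9 CPM in the CTCL lines, against 0.189, 0, 0 and 0.0114 CPM in the T-ALL lines. The adjusted p values were 0.195, 0.16 and 0.0781. For Sézary and mycosis fungoides markers edgeR called none of 14 (3 with unadjusted p under 0.05; DESeq2 called 3 higher, limma-voom 0). TWIST1, a transcription factor reported in Sézary cells, had 0.168, 14.5 and 53.6 CPM in the CTCL lines, against 0 in all T-ALL lines. DPP4, the CD26 surface marker that Sézary cells often lose, had 91.2, 120 and 372 CPM in the CTCL lines, against 0, 0, 0.63 and 0.0428 CPM in the T-ALL lines. TOX had 119, 58.5 and 137 CPM in the CTCL lines, against 127, 51.1, 194 and 116 CPM in the T-ALL lines. DPP4 was higher in every CTCL line than in every T-ALL line (adjusted p = 0.099), and TOX overlapped (adjusted p = 0.884).

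In a mixed list of S100, annexin, galectin and cytoskeleton genes, 11 of 34 tested were apart with CTCL higher, beside 7.19% of all genes tested, and none lower. The median log2 fold change was 1.42. PARVB, an integrin-linked adaptor outside that list, was among the 3 genes with the lowest adjusted p, with 92.6, 105 and 142 CPM in the CTCL lines, against 0.373, 0.285, 0.377 and 0.11 CPM in the T-ALL lines. PARVB had a log2 fold change of 8.62 (SE 0.54, adjusted p = 0.0045). LMNA, the nuclear lamin of differentiated cells, had 28.8, 696 and 279 CPM in the CTCL lines, against 0.94, 1.25, 2.39 and 2.08 CPM in the T-ALL lines. VIM, vimentin, had 901, 7322 and 2403 CPM in the CTCL lines, against 927, 894, 810 and 896 CPM in the T-ALL lines. LMNA was apart (adjusted p = 0.0542), whereas H9 lay within the T-ALL range in VIM (adjusted p = 0.241). Of 24 integrin and adhesion genes tested ICAM1 alone passed, beside 0.28% of all genes tested. Apart with CTCL higher were 4, beside 7.19% of all genes tested. ITGA6 had 22.8, 0 and 0.0172 CPM in the CTCL lines, against 16.2, 472, 83.4 and 48.9 CPM in the T-ALL lines. It overlapped (adjusted p = 0.51).

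**Figure D5:**
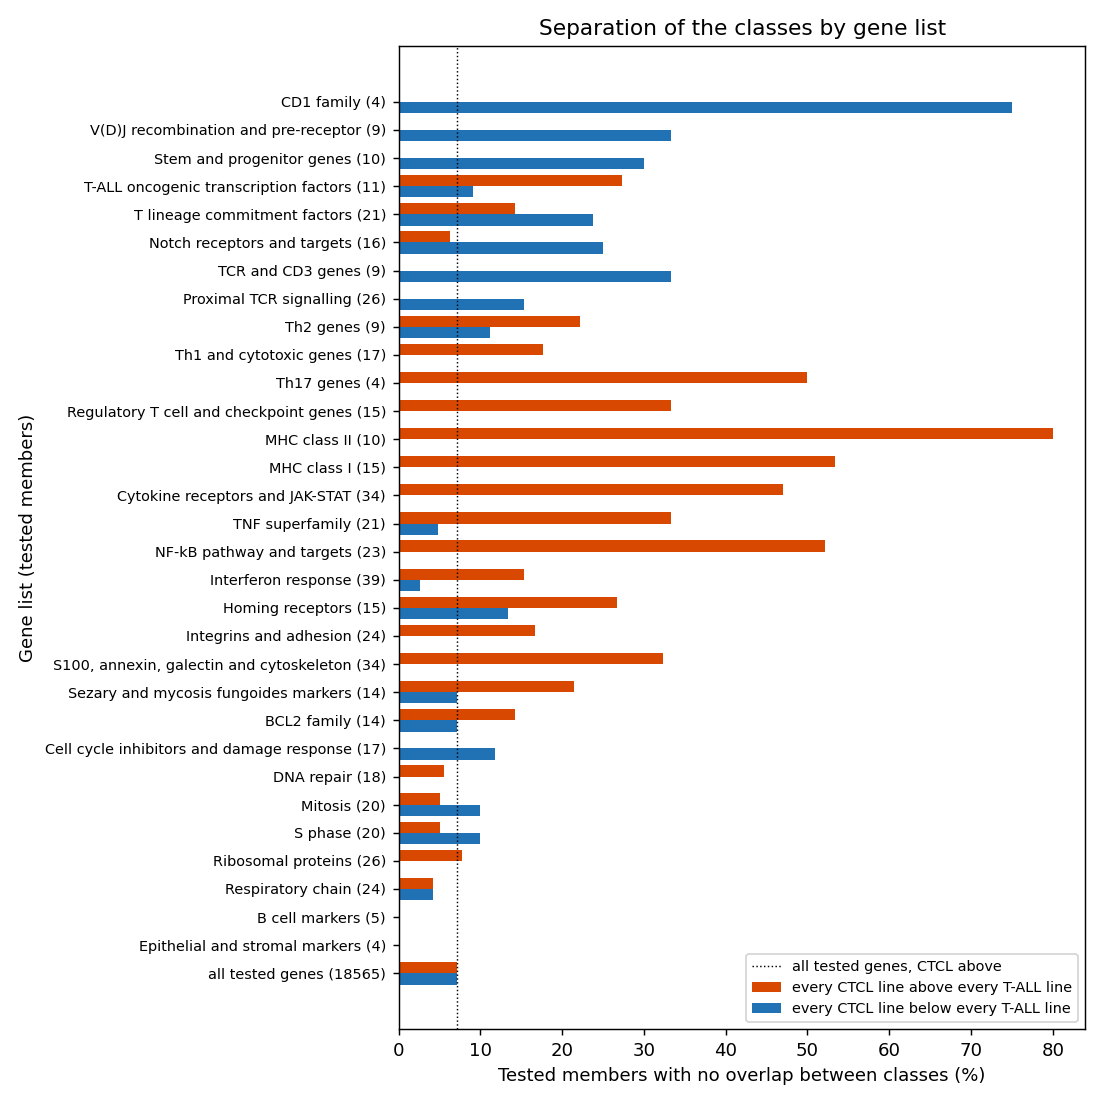
Share of tested members (x axis, percent) of each gene list (y axis, number tested in brackets) in which every CTCL line lay above (orange) or below (blue) every T-ALL line. The dotted line marks 7.19%, the share of all 18565 genes with CTCL above, and MHC class II reaches 8 of 10.

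Several genes were present in one class and nearly absent in the other. Of the 52, 38 were under 1 CPM in every line of the lower class (25 higher and 13 lower in CTCL), and 14 reached 1 CPM in both classes. CBR1 (chromosome 21, 36069941 to 36073166, plus strand), a carbonyl reductase, had 57.5, 55 and 52.7 CPM in the CTCL lines, against 0.0197, 0, 0.0329 and 0 CPM in the T-ALL lines. The T-ALL libraries together held 4 counts against 10393 in CTCL, with a log2 fold change of 11.84 (SE 1.10, adjusted p = 0.0134). NUDT16, a Nudix hydrolase, had 32.5, 15.6 and 47.8 CPM in the CTCL lines, against 0 in all T-ALL lines. With 0 counts in T-ALL it was at least 3073-fold higher, taking 3 counts over the class as the floor, yet its call (adjusted p = 0.0437) was lost without any 1 of the 7 lines. Other calls were nearly as unstable: those of HLA-DPB1, EBI3, TAP1, PIM2, AIM2 and TNFRSF9 were each lost without any line except H9. SAMHD1, which degrades dNTPs, had 86.2, 49.1 and 86.1 CPM in the CTCL lines, against 0.0742, 0.115, 0.481 and 0.137 CPM in the T-ALL lines. AIM2, a sensor of cytosolic DNA, had 4.53, 22.8 and 14.8 CPM in the CTCL lines, against 0.0128, 0, 0 and 0 CPM in the T-ALL lines. SAMHD1 had a log2 fold change of 8.52 (SE 0.83, adjusted p = 0.0145).

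In the other direction, CDCA7L was the clearest case. CDCA7L (chromosome 7, 21900900 to 21946084, minus strand), a MYC-interacting nuclear protein, had 0.0188, 0 and 0 CPM in the CTCL lines, against 125, 137, 190 and 129 CPM in the T-ALL lines. CTCL libraries held 1 count together, and the ratio of T-ALL to CTCL sums was 26900 (95% exact Poisson interval 4827 to 1062000; adjusted p = 0.0045). BEX4, a microtubule-associated protein, had 0.0185, 0 and 0 CPM in the CTCL lines, against 79.5, 58.7, 61.7 and 28.4 CPM in the T-ALL lines. DSG2, a desmosomal cadherin, had 0.0185, 0.0657 and 0.0178 CPM in the CTCL lines, against 23.9, 85.4, 98.9 and 106 CPM in the T-ALL lines. ARPP21, a gene of immature thymocytes, had 0 in all CTCL lines, against 184, 21.4, 87.6 and 125 CPM in the T-ALL lines. ARPP21 had 0 counts in CTCL and was at least 7011-fold lower there (floor of 3 counts over the class; adjusted p = 0.0457). HS6ST1, a heparan sulfate sulfotransferase, was the only called lower gene at 1 CPM or more in both classes, with 71.5, 47.7 and 47.9 CPM in the CTCL lines, against 368, 321, 232 and 331 CPM in the T-ALL lines. Its log2 fold change was -2.49 (SE 0.28, adjusted p = 0.0232). CBR1 overlaps SETD4, CDCA7L overlaps DNAH11, and ARPP21 and DSG2 overlap antisense genes.

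The promoters of 4 of these genes that were near 0 in one class are shown with CG dinucleotides in capitals, since their density describes the kind of promoter; methylation was not measured. CBR1 (chr21:36069774-36070073, plus strand) held 27, NUDT16 (chr3:131381421-131381720, plus strand) 17, CDCA7L (chr7:21945850-21946149, minus strand) 34 and BEX4 (chrX:103214842-103215141, plus strand) 16. The median was 26 in the 11172 matched promoters of tested genes, 19 in the 29 matched genes called higher and 26 in the 12 called lower.
CBR1: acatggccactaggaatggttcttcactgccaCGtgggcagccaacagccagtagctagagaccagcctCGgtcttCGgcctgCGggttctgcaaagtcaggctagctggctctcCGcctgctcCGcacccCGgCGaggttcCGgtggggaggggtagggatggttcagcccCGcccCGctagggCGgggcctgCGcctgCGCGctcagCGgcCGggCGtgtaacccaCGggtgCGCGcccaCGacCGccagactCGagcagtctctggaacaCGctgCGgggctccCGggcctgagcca
NUDT16: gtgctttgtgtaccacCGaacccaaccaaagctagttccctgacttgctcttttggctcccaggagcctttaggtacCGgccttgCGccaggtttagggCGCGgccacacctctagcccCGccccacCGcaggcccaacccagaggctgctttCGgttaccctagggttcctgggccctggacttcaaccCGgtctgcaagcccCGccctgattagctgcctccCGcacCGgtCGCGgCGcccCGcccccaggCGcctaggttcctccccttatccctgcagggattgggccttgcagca
CDCA7L: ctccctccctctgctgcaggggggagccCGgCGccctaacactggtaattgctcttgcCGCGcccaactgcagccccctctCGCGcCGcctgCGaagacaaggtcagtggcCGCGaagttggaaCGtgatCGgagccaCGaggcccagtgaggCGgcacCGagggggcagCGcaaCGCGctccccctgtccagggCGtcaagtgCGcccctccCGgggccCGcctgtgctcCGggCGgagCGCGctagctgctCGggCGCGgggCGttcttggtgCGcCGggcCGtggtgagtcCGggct
BEX4: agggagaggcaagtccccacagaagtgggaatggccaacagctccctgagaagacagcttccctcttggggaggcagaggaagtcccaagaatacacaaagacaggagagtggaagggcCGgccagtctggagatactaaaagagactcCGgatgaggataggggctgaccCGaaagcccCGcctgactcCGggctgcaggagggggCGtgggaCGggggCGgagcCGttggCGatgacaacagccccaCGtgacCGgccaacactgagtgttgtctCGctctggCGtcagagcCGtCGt

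Genes of immature thymocytes were higher in T-ALL in some lines and not in others. RAG1, the recombinase, had 0.223, 0.0634 and 0.139 CPM in the CTCL lines, against 239, 55.4, 221 and 3.09 CPM in the T-ALL lines. RAG2 had 0.112, 0 and 0.0172 CPM in the CTCL lines, against 112, 8.85, 34.3 and 2.14 CPM in the T-ALL lines. The pre-receptor alpha chain PTCRA had 0 in all CTCL lines, against 225, 0, 17.2 and 0.0991 CPM in the T-ALL lines. RAG1 and RAG2 were apart but did not pass (adjusted p = 0.0869 and 0.131), and PTCRA was not tested. Of 9 tested V(D)J and pre-receptor genes all had negative log2 fold changes, and ARPP21 was called. Members at 0 in every CTCL line, such as ARPP21, passed the filter only through T-ALL lines. CD1A, a thymocyte surface molecule, had 0 in all CTCL lines, against 450, 22.2, 45.4 and 0.169 CPM in the T-ALL lines. All 4 tested CD1 genes were negative and 3 were apart with CTCL lower, beside 7.1% of all genes tested. Near 0 in every CTCL line, a CD1 gene passed the filter only through T-ALL lines. The negative signs were thus set in advance. None was called by edgeR (4 with unadjusted p under 0.05), while DESeq2 called 3 lower and limma-voom 0. THP6 held under 1 CPM of each CD1 gene. The median log2 fold change was -15.9, or -13 with genes at 0 in CTCL set to their bound.

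Notch genes gave no edgeR call among 16 tested (7 with unadjusted p under 0.05; DESeq2 called 1 higher and 4 lower, limma-voom 0). NOTCH1 had 72.7, 65.9 and 262 CPM in the CTCL lines, against 1909, 227, 511 and 202 CPM in the T-ALL lines. NOTCH3 had 0.875, 1.7 and 0.173 CPM in the CTCL lines, against 270, 5.85, 40.7 and 3.89 CPM in the T-ALL lines. The target HES1 had 13, 2.41 and 1.3 CPM in the CTCL lines, against 72.7, 75.7, 41.9 and 67.6 CPM in the T-ALL lines. The target HES4 had 0.0188, 0.027 and 0 CPM in the CTCL lines, against 412, 30.9, 6.66 and 53.7 CPM in the T-ALL lines. The adjusted p values were 0.349, 0.23, 0.163 and 0.0781. DTX1, another target, had 0.186, 0 and 1.72 CPM in the CTCL lines, against 707, 3.06, 96.4 and 53.2 CPM in the T-ALL lines. MYC, a target in T-ALL that also has other inducers, had 574, 237 and 276 CPM in the CTCL lines, against 338, 486, 413 and 216 CPM in the T-ALL lines. MYC overlapped, with an adjusted p of 0.999.

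Oncogenic transcription factors of T-ALL were expressed in some T-ALL lines and not in others. TAL1 had 0.168, 0.0126 and 0 CPM in the CTCL lines, against 0, 42.9, 40.8 and 69.9 CPM in the T-ALL lines. LMO2, its partner, had 0.652, 0.0123 and 0 CPM in the CTCL lines, against 0.0128, 23.2, 36.2 and 34.1 CPM in the T-ALL lines. SUP-T1 held none or next to none of either. The homeobox gene NKX2-5 had 0 in all CTCL lines, against 0.0106, 652, 30.7 and 294 CPM in the T-ALL lines. LYL1 had 0.0185, 35 and 0.0178 CPM in the CTCL lines, against 0.342, 134, 0.327 and 116 CPM in the T-ALL lines. None of 11 tested members passed with edgeR (6 with unadjusted p under 0.05; DESeq2 called 2 higher and 4 lower, limma-voom 0). HOXA9, a gene of progenitors, had 23.6, 0.358 and 22.8 CPM in the CTCL lines, against 0, 0.104, 0.139 and 0 CPM in the T-ALL lines. HOXA9 was thus apart with CTCL higher (adjusted p = 0.19), with MyLa just above the T-ALL lines. Among T lineage commitment factors edgeR called 0 of 21 (6 with unadjusted p under 0.05; DESeq2 called 2 lower, limma-voom 0). TCF7 had 168, 51.3 and 0.0695 CPM in the CTCL lines, against 516, 605, 1121 and 182 CPM in the T-ALL lines. RUNX1 had 33.8, 25.1 and 87.6 CPM in the CTCL lines, against 121, 143, 351 and 478 CPM in the T-ALL lines. RUNX3, used in mature T cells, had 222, 380 and 233 CPM in the CTCL lines, against 114, 42.9, 5.08 and 29 CPM in the T-ALL lines. BCL11A had 0.578, 0 and 0 CPM in the CTCL lines, against 110, 46.5, 19.1 and 36.7 CPM in the T-ALL lines. These 4 were apart, with RUNX3 higher and the others lower in CTCL, and none passed (adjusted p = 0.491, 0.201, 0.27 and 0.175).

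Genes of core processes had log2 fold changes with medians near 0 and no edgeR call. Medians were -0.0031 over 26 ribosomal protein genes, -0.128 over 24 respiratory chain genes, -0.203 over 20 mitosis genes, -0.183 over 20 S phase genes and 0.0241 over 18 DNA repair genes. At unadjusted p under 0.05 there were 0, 2, 5, 2 and 2 genes in that order. DESeq2 called 1 respiratory chain and 1 S phase gene lower and no other, and limma-voom none. The cell cycle inhibitor RB1 had 0.749, 59.8 and 45.6 CPM in the CTCL lines, against 126, 140, 276 and 107 CPM in the T-ALL lines. The CTCL lines all lay below the T-ALL lines, with H9 the lowest, and RB1 did not pass (adjusted p = 0.461). The proapoptotic gene BAX had 68.8, 224 and 175 CPM in the CTCL lines, against 13.1, 43.2, 22.5 and 22.5 CPM in the T-ALL lines. BBC3, another proapoptotic gene, had 54.5, 27.6 and 29.1 CPM in the CTCL lines, against 3.6, 7.54, 5.22 and 11.1 CPM in the T-ALL lines. Both were apart with CTCL higher, and neither passed (adjusted p = 0.107 and 0.116). Over the tested BCL2 family the median log2 fold change was -0.0371, with 6 genes positive and 8 negative. Among the negative ones the proapoptotic gene BIK had 5.07, 0.027 and 0.0356 CPM in the CTCL lines. The T-ALL lines held 12.6, 2.21, 6.59 and 9.61 CPM of BIK, which overlapped (adjusted p = 0.646). Of 14 BCL2 family genes and 17 cell cycle inhibitors and damage response genes edgeR called none (4 and 5 with unadjusted p under 0.05; DESeq2 called 3 higher and 1 lower, and 1 higher and 1 lower; limma-voom 0).

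Some markers of other cells were expressed in lines of both classes. The B cell gene CD79A had 188, 5.78 and 0.0695 CPM in the CTCL lines, against 4.7, 6.41, 14.9 and 9.33 CPM in the T-ALL lines. Its partner CD79B had 15.4, 0.0405 and 0 CPM in the CTCL lines, against 0.0106, 21.5, 9.89 and 37.1 CPM in the T-ALL lines. MS4A1, which encodes CD20, had 0.0558, 0 and 0 CPM in the CTCL lines, against 0, 0, 0 and 0.0107 CPM in the T-ALL lines. The myeloid gene CSF1R had 0.0554, 6.04 and 39.5 CPM in the CTCL lines, against 0.00918, 0, 0.103 and 0.0114 CPM in the T-ALL lines. The fibroblast collagen gene COL1A1 had 4.18, 107 and 0.406 CPM in the CTCL lines, against 2.02, 0.276, 4.31 and 0.356 CPM in the T-ALL lines. The epithelial gene EPCAM had 74.4, 0 and 0 CPM in the CTCL lines, against 0, 2.22, 0.018 and 0 CPM in the T-ALL lines. DCN and ELANE were at 0 in all lines, and edgeR called none of the 5 B cell, 2 myeloid and 4 epithelial and stromal markers tested (0, 0 and 2 with unadjusted p under 0.05; DESeq2 called 1 of the last lower, limma-voom 0). The part of such genes in the results above was not tested.

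The same contrast was taken in the GATA3 knockdown libraries of the 7 lines, which are other libraries of the same lines. All 52 genes had the same direction there and 36 were called, among 49 calls (37 higher and 12 lower). With the SUP-T1 libraries labelled knockdown in place of those labelled control, 49 of the 52 were called among 63, 45 higher and 18 lower. The labels do not say whether libraries of a line came from separate cultures, which does not enter a test with the line as replicate.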

How the data were processed

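Polyadenylated RNA from 7 human T cell lines was analysed in 18 control libraries, as gene-level expected counts from the deposited table. Per the submitters' processing notes, the authors trimmed reads with cutadapt 2.3, aligned them with STAR 2.7.8a to GRCh38 and counted with RSEM 1.3.3. The deposited expected counts were whole, so rounding changed none. Of 60623 human identifiers 96.5% were in GENCODE 29, which gave coordinates, and 5 reporter rows at 0 were left out.

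Control counts were summed per line and tested by class with edgeR 4.0.16 (R 4.3.3), using TMM scaling, filterByExpr and quasi-likelihood F tests adjusted over 18565 genes. Levels are CPM on TMM-scaled totals. Line totals ran from 53.31 M to 93.92 M, and intervals cover counting error only. Same-numbered libraries of different lines had residual correlations of -0.0739 to 0.103, so they were not paired. Fits with other scalings, filters and tools (DESeq2 1.42.0, limma 3.58.1), with libraries kept apart and without each library or line were alternatives.

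Members and lists were chosen with earlier results of these data known. Named genes were GATA3 and some, not all, of the 12 highest and 12 lowest called log2 fold changes. These were ranked among called genes reaching a mean of 5 CPM in the higher class. Up to 6 called and 6 other members per list could be named, and others are shown as not passing. Further genes and the promoters shown were chosen after their values were seen. Some members of the lists are counted but not reported by name here. Python 3.11.15 and matplotlib 3.10.9 made the figures.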

Additional observations from a re-analysis of the deposited data

Results flagged for a closer look

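In 67 of the genes named above, values of the T-ALL lines were screened on log2(CPM + 1) for a line far from the other 3. Of these, 8 genes met the criterion, and chance flags about 1 in 20. The other genes named above were not screened, so the 8 do not count every such case among them. SUP-T1 was far above the other T-ALL lines in CD3D, at 629 CPM against 255 to 283 CPM. SUP-T1 was far below them in CISH (0.258 CPM against 6.61 to 8.78), DSG2 (23.9 against 85.4 to 106), IFIT1 (0.812 against 4.26 to 5.07), LMO2 (0.0128 against 23.2 to 36.2) and TAL1 (0 against 40.8 to 69.9). CCRF-CEM was far above them in EPCAM, at 2.22 CPM against 0 to 0.018, and THP6 in NKG7, at 17.9 CPM against 2.77 to 3.65. The SUP-T1 libraries are those whose GATA3 level goes against their labels, and whether that bears on these values was not tested.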

How the results depend on the processing

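None of the 52 calls changed direction in any fit run. The count of genes higher and lower in CTCL was 743 and 742 with DESeq2, 81 higher with limma-voom, 155 and 84 with mean CPM per line and limma-trend, and 8 lower with a filter of 10 counts in 2 lines. With libraries kept apart and the line as a random effect the counts were 747 and 466, and with the replicate block added 609 and 347; on line sums no replicate block can be made. Replicate numbers did not pair libraries, since 1 of 48 same-number correlations exceeded 0.1. Leaving out a library or line gave 10 to 183 higher, 1 to 155 lower, and a GATA3 log2 fold change of 0.62 to 1.5, never called. Without SUP-T1 no call was left among V(D)J recombination, Th1 and cytotoxic, regulatory T cell and checkpoint, MHC class I and TNF superfamily genes, each with 1 call when all lines were used. Such losses were not particular to SUP-T1. The calls of TAP1 and TNFRSF9 were lost without any line except H9. Those of CCL5 and ARPP21 were also lost without Mac1, MyLa, MOLT4 or THP6. Scaling by library totals alone put the median log2 fold change of all genes at -0.116, against 0.029. Among the named genes followed across fits, 6 uncalled ones changed sign in some fit, for which the cause was not tested. CD79A was -0.77 with the replicate block, -0.81 with libraries apart, -0.84 with limma-voom and -0.59 with limma-trend, beside 2.87 in the reported fit. In knockdown libraries MYC was 0.42, TOX 0.054 and ZAP70 0.045. Leaving out each line gave ranges of -1.59 to 3.44 for CD79A, -4.56 to 0.21 for CD4, -1.21 to 0.038 for IL2RG, -0.50 to 0.21 for MYC, -0.51 to 0.083 for TOX and -0.35 to 0.086 for ZAP70. Genes near 0 in one class limit how well their folds are known, and 3 against 4 lines limit every test.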
